A study of Mus musculus with 2 samples.

Results

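The sites described here are accessible regions of intergenic DNA, at intermediate distance from genes, in mouse embryonic motor neurons. They are the entries of 1 pooled ATAC-seq peak list on chromosomes 1 to 19 whose summit lay outside every protein-coding gene span and more than 10 kb, but at most 100 kb, from the nearest end of a protein-coding gene. Of 138387 entries in the list, 134427 lay on these chromosomes, and 24542 of them met the rule. Each entry is a summit, and the 24542 summits fell in 19706 peak intervals.

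ATAC-seq marks open chromatin through the cuts that the transposase Tn5 leaves there. GFP-positive cells were purified by FACS from C57/Bl6 mouse embryos of day 10.5 that carry Hb9::GFP, and the labels call them spinal motor neurons. Hb9 is also called Mnx1 and encodes a homeodomain protein of postmitotic motor neurons, so the sort selects cells in which the transgene is active. The labels name 1 group of 2 replicates with no other genotype or treatment, and both replicates stand in the same list, so no value below has a replicate error.

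Intergenic DNA at this distance from genes holds enhancers, which are stretches bound by transcription factors that act on genes in cis. It also holds the promoters of long non-coding RNAs (lncRNAs), microRNAs (miRNAs) and transfer RNAs, which a protein-coding gene list leaves out. Enhancers of developmental regulators can lie far from the gene and can skip a nearer one, so the nearest gene below is a position and not a target.

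As a check of the label, 14 of 15 listed motor neuron transcription factor genes had an entry within 1 kb of a gene end, among them Mnx1 at 7.42-fold and Isl1 at 10.9-fold over local background. So did 17 of 17 neural progenitor genes, 15 of 15 dorsal interneuron genes, 13 of 14 forebrain and midbrain genes and 16 of 18 housekeeping genes, so the share does not tell motor neurons from other neural cells. Of 12 blood and microglia genes, 3 had one, and of 14 endothelial genes, 7 did. Over all 20560 coding genes the share was 67.5%. Where a gene had such an entry, the median of its highest fold was 5.44 on the motor neuron list and 8.17 over all coding genes. An entry at a gene end shows accessibility, not expression.

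The sequences printed here come from non-coding genes that lie close to some of these sites. For the miRNAs the link is position alone, and the nearest summit to the Mirlet7a-1 hairpin was 7432 bp away. The mature sequences below (RefSeq, GRCm38.p6) are of miRNAs, chosen after values were seen, whose hairpins had at least 6 sites within 10 kb. Other hairpins with as many are not shown, among them Mir3089 with 8 and Mir670 with 7. Capitals mark the seed, bases 2 to 8, which pairs with target messages.

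miR-9-5p: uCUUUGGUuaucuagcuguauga
miR-9-3p: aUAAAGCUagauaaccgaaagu
miR-17-5p: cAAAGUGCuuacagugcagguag
miR-20a-5p: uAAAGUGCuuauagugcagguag
miR-18a-5p: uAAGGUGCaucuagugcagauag
miR-19a-3p: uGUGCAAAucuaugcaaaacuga
miR-19b-3p: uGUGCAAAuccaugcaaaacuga
miR-92a-3p: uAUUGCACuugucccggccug
miR-129-5p: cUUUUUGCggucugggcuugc
let-7a-5p: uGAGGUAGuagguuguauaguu
let-7f-5p: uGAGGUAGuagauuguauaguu

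Both miR-9 sequences are the same for the 3 hairpins Mir9-1, Mir9-2 and Mir9-3. In the cluster around Mir17, miR-17-5p and miR-20a-5p share the seed AAAGUGC, and miR-19a-3p and miR-19b-3p share GUGCAAA. The let-7a-5p and let-7f-5p seed is GAGGUAG.

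Next come the starts of 4 lncRNA genes whose promoter window, 250 bases before to 50 after the start, held the summit of a site. These are 1700086L19Rik and BB218582, which had the first and the third highest fold of such windows, Dancr, a widely expressed lncRNA, and D130051D11Rik, whose nearest coding gene is the signalling gene Wnt7b. The windows are at chr12:74284026-74284325 (plus strand), chr2:106650315-106650614 (minus strand), chr5:74092810-74093109 (plus strand) and chr15:85634346-85634645 (plus strand), GRCm38.p6. Capitals mark the GC box (GGGCGG, the core of Sp-family sites) and the CCAAT box (CCAAT, bound by NF-Y), on either strand.

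1700086L19Rik: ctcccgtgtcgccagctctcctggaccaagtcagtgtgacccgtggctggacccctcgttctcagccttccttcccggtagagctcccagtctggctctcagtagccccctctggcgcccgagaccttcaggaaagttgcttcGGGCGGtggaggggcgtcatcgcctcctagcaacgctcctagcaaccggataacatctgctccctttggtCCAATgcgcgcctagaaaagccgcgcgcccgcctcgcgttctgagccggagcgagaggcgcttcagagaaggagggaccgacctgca
BB218582: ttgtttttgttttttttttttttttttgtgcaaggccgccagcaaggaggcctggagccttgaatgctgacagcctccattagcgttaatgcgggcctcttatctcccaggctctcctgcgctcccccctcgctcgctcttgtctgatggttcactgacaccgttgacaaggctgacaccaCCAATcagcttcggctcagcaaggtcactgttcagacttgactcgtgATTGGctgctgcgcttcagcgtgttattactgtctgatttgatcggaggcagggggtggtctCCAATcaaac
Dancr: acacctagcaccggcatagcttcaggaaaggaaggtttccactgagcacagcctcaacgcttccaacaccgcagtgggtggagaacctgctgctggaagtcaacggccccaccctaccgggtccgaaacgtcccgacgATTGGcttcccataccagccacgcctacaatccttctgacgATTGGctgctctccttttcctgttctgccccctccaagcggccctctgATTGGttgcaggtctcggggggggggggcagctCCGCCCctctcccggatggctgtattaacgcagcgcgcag
D130051D11Rik: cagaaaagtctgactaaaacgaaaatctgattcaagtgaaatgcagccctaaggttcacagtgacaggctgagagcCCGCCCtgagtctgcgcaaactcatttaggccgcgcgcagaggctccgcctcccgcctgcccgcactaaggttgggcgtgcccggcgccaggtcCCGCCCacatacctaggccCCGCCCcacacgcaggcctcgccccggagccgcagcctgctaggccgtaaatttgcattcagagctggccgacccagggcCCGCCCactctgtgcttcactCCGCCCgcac

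Sites at 10 to 100 kb made up 18.3% of entries (exact binomial 95% interval, 18.1 to 18.5) and were less dense than sites nearer to genes. The sequence that meets the same distance rule, called territory here, spanned 527 Mb, or 21.9% of the 2402 Mb examined. It held 46.6 sites per Mb (exact Poisson 95% interval, 46.0 to 47.1). Intergenic sequence 1 to 10 kb from genes held 53.4 per Mb (52.4 to 54.4), and sequence beyond 100 kb held 31.1 (30.7 to 31.6). All entries together came to 56.0 per Mb. These intervals, and those below, cover counting error only and treat summits of 1 peak interval as independent, which they are not. On single chromosomes the density ran from 32.0 per Mb on chromosome 7 to 56.5 on chromosome 2.

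Density fell slowly with distance, while the median fold did not. From 10 to 20 kb there were 6692 sites, or 50.7 per Mb (49.5 to 51.9). At 50 to 60 kb the value was 44.6, and at 90 to 100 kb it was 40.8 (38.5 to 43.2), a ratio of 1.24 between the first and the last step. Short gaps between genes supply only the short distances. Within the 1376 gaps over 200 kb, which supply every distance, the density fell from 46.7 (44.2 to 49.4) to 40.2 per Mb (37.9 to 42.6), a ratio of 1.16. In these gaps it was already 42.6 at 20 to 30 kb and stayed between 41.5 and 43.5 from there to 90 kb. Median fold stayed between 2.98 and 3.14 in all 9 steps.

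**Figure D1:**
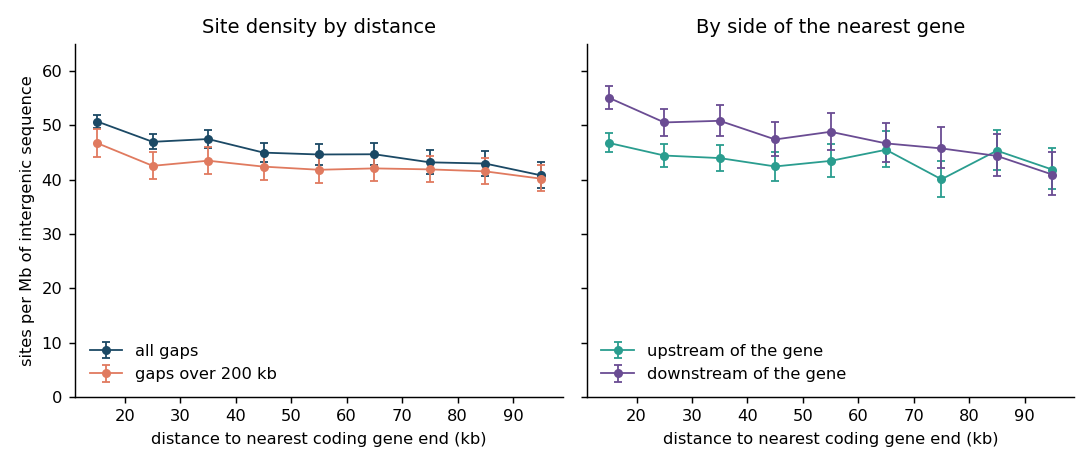
Sites per Mb of intergenic sequence (y axis) in steps of 10 kb from the nearest coding gene end (x axis), with exact Poisson 95% intervals as bars. The left panel shows all gaps between genes, falling from 50.7 to 40.8 per Mb, beside gaps over 200 kb. The right panel splits the sites by the side of the nearest gene, where downstream exceeds upstream by most at 10 to 20 kb (55.1 against 46.8).

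Sites were denser beyond the 3' end of the nearest gene than before its 5' end. This split was chosen after values were seen, and it covers the 9446 of 11859 genes with territory whose strand the promoter table gives. Downstream territory held 49.7 sites per Mb (48.7 to 50.7) and upstream territory 44.4 (43.5 to 45.3), a ratio of 0.893. At 10 to 20 kb the values were 55.1 (53.0 to 57.3) downstream and 46.8 (45.0 to 48.6) upstream. At 90 to 100 kb they were 40.9 and 41.9, with intervals that overlap. Median fold was 2.98 on both sides. The cause of the difference was not tested.

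Longer gaps nearly always held a site. Of 3842 gaps of 20 to 50 kb, 32.7% did, against 71.9% of 1964 gaps of 50 to 100 kb and 97.6% of 585 gaps over 500 kb. Density within the territory ran the other way, from 53.8 per Mb in the shortest of these gaps to 39.8 in the longest. In all, 4985 of 8282 gaps over 20 kb (60.2%) held at least 1 site, and 41 gaps over 200 kb held none.

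The sites were mostly weak. The fold is the authors' ratio of reads at the summit to local background, with 1 read added to each. Its median was 2.98, with 5th and 95th percentiles of 1.89 and 8.42. The same median held beyond 100 kb (2.98), with 2.83 at 1 to 10 kb, 2.86 inside genes and 5.49 within 1 kb of gene ends. Reads at the summit had a median of 21, from 11 at the 5th to 79 at the 95th percentile. The value 11 is also the lowest in the list, so sites under that level are not listed, and absence of an entry is not closed chromatin. In 57.6% of these sites the local background was at its genome-wide floor of 5.37 reads, against 8.42% at gene ends. The share of sites with q under 0.05 was 80.7%, beside 82.1% of all entries. Their intervals had a median width of 345 bp, beside 946 bp at gene ends.

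Few sites were strong, and a small number exceeded nearly all gene ends in fold. At 5-fold or more stood 4951 sites, or 20.2% (19.7 to 20.7), beside 25.3% of all entries, 15.4% at 1 to 10 kb (14.7 to 16.1) and 21.2% beyond 100 kb (20.6 to 21.7). At 20-fold or more, a level chosen after values were seen, stood 101 sites, or 0.412% (0.335 to 0.5), beside 0.3% of all entries. That level was reached by 0.856% of entries beyond 100 kb (0.735 to 0.992), 0.204% at 1 to 10 kb (0.128 to 0.308) and 2 of 24420 entries at gene ends. These 101 sites had a median width of 378 bp, beside 345 bp for the intervals of all sites at this distance. Of the 101, 65 stood alone.

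**Figure D2:**
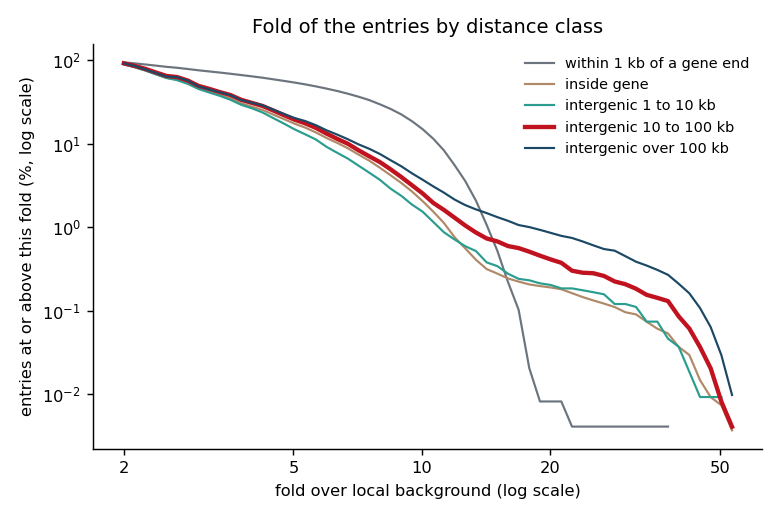
Share of entries (y axis, percent, log scale) at or above each fold over local background (x axis, log scale), with 1 line per distance class and the sites at 10 to 100 kb drawn thick. Gene ends lead at 5-fold (54.4% of them) and drop to 2 entries at 20-fold, where the sites at 10 to 100 kb still hold 0.412%.

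The 10 sites of highest fold, among those with q under 0.05 and background under 30 reads, ran from 44.8 to 55.6-fold. The first lay 33.3 kb from Ctnna2, which encodes the neuronal alpha-catenin of cadherin junctions, at chr6:76848088-76848572, with 1089 reads over a background of 18.6. The second lay 21.8 kb from Mllt3, a subunit of the super elongation complex, at chr4:88054958-88055413, with 822 reads and 53.3-fold. Next was a site 42.5 kb from St3gal6, which encodes a sialyltransferase, at 48.7-fold. The others were nearest to Mmut, Chodl, Il17a, Ndufa4, Ddx18, Iyd and Olfr1009, the last an olfactory receptor gene. None of these 10 genes was on the motor neuron lists. Chodl, which encodes the membrane protein chondrolectin, had its site of 47.9-fold and 603 reads at 40.6 kb.

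At the edges of the distance rule the sites ranged from low to high fold. The nearest sites inside it were 10.003 kb from Mtnr1a (2.2-fold), 10.011 kb from Fosb (10.9-fold) and 10.012 kb from Adcyap1r1 (2.37-fold). Just short of it stood sites at Vmn1r231 (2.51-fold), Zfp872 (11.8-fold) and Chrna1 (4.21-fold). The farthest sites inside were nearest to Ttc6 (4.08-fold), Cbln4 (8.42-fold) and Nek10 (8.17-fold), and those just beyond 100 kb were nearest to Car2 (6.44-fold), Oxgr1 (2.50-fold) and Utp6 (3.93-fold).

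Many sites had close neighbours. A run joins neighbouring sites whose summits lie at most 1/8 of 100 kb apart. By that measure 5558 sites (22.6%) were alone, and 7637 (31.1%) stood in 1083 runs of 5 or more. Summits of the same interval count as neighbours here. With 1 entry per interval the share in runs of 5 or more was 17.5%, and among the upper 50% by q it was 11.1%. Joined at 5 kb it was 10.7%, and at 25 kb it was 48.9%. Such shares were not computed for other distance classes, so they do not show whether these sites cluster more than their density gives. Single-summit intervals made up 81.5% of the 19706. Sites in runs of 5 or more had a median of 24 reads over a background of 6.53, and lone sites 18 reads over 5.37, with median folds of 2.97 and 2.98. The share at 20-fold or more was 1.17% for lone sites and 0.0786% in runs of 5 or more.

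The longest run by number held 79 sites over 138 kb between Hrh1, the histamine H1 receptor gene, and Atg7, an enzyme of autophagy, at chr6:114494302-114631850. No non-coding gene of the table lay in it. Its median background was 15.6 reads and its median fold 2.56. The second, 43 sites between Gas8 and Rhou, covered 43 genes of 5S ribosomal RNA and had a median fold of 2.12. The third, 39 sites between Cstad and 1700001O22Rik, contained 8 lncRNA genes and Mir3089, with a median fold of 3.69. Runs of 26 sites followed at Olig1 to Ifnar2, Cxxc5 to Psd2 and Polg to Rhcg. Olig1 lies beside the progenitor gene Olig2, and the run between Polg and Rhcg holds Mir9-3 and its host lncRNA.

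The highest read depths lay in 1 place. A single 4505 bp interval near Col19a1, at chr1:24611609-24616113, held 15 sites with 7675 to 10129 reads over a background of up to 3051, and the 5 highest backgrounds were all in it. Backgrounds of 30 reads or more occurred at 64 sites (0.261%), beside 0.453% of all entries. Whether copied sequence plays a part in such depth was not tested.

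Of 11859 coding genes with any territory, 6333 (53.4%) were nearest to at least 1 site and 1872 (15.8%) to at least 5. The median gene had 1 site. The most sites belonged to Hrh1 (43), Scaf8 (43), Atg7 (36), Pkdcc (33), Zfp516 (30), Gas8 (28), Gm15319 (28), Tle3 (28), Rybp (27), Gm21119 (26) and Olig3 (26). Tle3 encodes a Groucho corepressor, Rybp a Polycomb subunit and Olig3 a helix-loop-helix factor of the dorsal spinal cord. Per 100 kb, among genes with at least 50 kb of territory, Atg7 came first with 51.5 sites, then Hrh1 (42.9), Ttc17 (30.9), Scaf8 (29.9) and Ythdf1 (29.8), beside 4.66 over all genes. The 20 sites of the run before Scaf8 had at most 25 reads each and at most 2.89-fold.

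Genes with an accessible end had more such sites. Of 7492 genes with an entry within 1 kb of an end, 61.7% (60.6 to 62.8) had a site at 10 to 100 kb, against 39.1% (37.6 to 40.6) of 4367 genes without. Per 100 kb of territory the values were 5.23 and 3.38. The difference held in each range of territory, for example 90.2% against 71.2% of genes with 50 to 100 kb. Gene families set after values were seen differed further. Among 752 olfactory receptor genes with territory, 13.8% had a site, with 1.72 sites per 100 kb (1.47 to 2.01). Vomeronasal receptor genes had 1.23 per 100 kb (1.04 to 1.46), and Zfp zinc finger genes had 5.94 (5.44 to 6.47).

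Among the motor neuron transcription factors, 10 of 14 genes with territory had a site (71.4%) and 6 had 5 or more (42.9%), beside 53.4% and 15.8% of all genes. Their median was 2.5 sites, and together they had 69, or 6.71 per 100 kb (5.22 to 8.49), beside 4.66 over all genes. The ratio of these densities was 1.44, and it was 1.22 with 1 entry per interval and 1.17 with distance to every gene, coding or not. Their median territory of 65.5 kb was larger than the 23.8 kb of all genes, so counts per gene are not comparable without it.

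Nkx6-1, a homeobox gene of motor neuron progenitors, had 14 sites, 13 of them beyond its 3' end. Its site of highest fold lay 68.5 kb away at chr5:101590464-101591712, with 91 reads and 7.97-fold, in an interval of 5 summits. These 5 lay inside a non-coding gene. Zeb2, a zinc finger homeobox repressor, had 12 sites, 9 upstream, and the one of highest fold had 7.70-fold and 48 reads at 22.7 kb. That Zeb2 site lay inside a non-coding gene. The most reads at a Zeb2 site were 60, with 6.78-fold, 16.6 kb downstream. Ebf2, a helix-loop-helix factor of early neurons, had 11 sites and the highest fold of the list, 10.9 with 73 reads, 76.2 kb away at chr14:67506833-67507587. Another 3 summits of Ebf2 shared an interval 44.4 to 44.8 kb away, with 43 to 49 reads. They lay inside a non-coding gene and within 1 kb of an end of one, and the 10.9-fold site did not. These 3 genes each held sites on more than 1 stretch, with gaps between them.

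Onecut1, a cut homeobox gene, had 9 sites, and 5 of them lay upstream at 12.56 to 14.87 kb, the last with 116 reads and 8.58-fold. All 5 lay inside a non-coding gene, and all but the last within 1 kb of an end of one. Isl1, the LIM homeobox gene needed for motor neurons, had 8 sites with 13 to 37 reads, the highest at 96.8 kb (5.97-fold, chr13:116201321-116202283). None of the 8 Isl1 sites lay inside a non-coding gene or within 1 kb of an end of one. Lhx3, its LIM partner, had 6 sites in 19.9 kb of territory, or 30.2 per 100 kb, all downstream at 10.5 to 24.9 kb. The highest Lhx3 site had 66 reads and 5.94-fold, over a background of 10.3. It lay inside a non-coding gene and within 1 kb of an end of one. Onecut2 had 3 sites of up to 3.14-fold. Onecut3 had 2, of 7.65 and 2.67-fold, the first within 1 kb of a non-coding gene end. Ebf1 had 2 of up to 2.51-fold and Ebf3 had 2 of up to 5.44-fold. Mnx1, with 36.2 kb of territory, had none, nor did Isl2 (3.22 kb), Lhx4 (3.21 kb) and Myt1l (90 kb). Nkx6-2 had no territory.

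**Figure D3:**
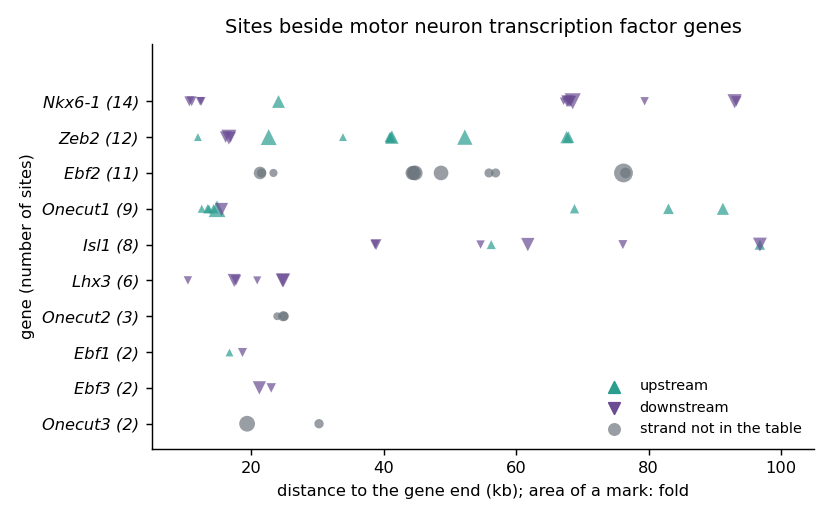
Each mark is a site beside a motor neuron transcription factor gene, placed by its distance in kb from the nearest end of that gene (x axis), with the number of sites in brackets after the gene name, and its area is proportional to the fold. Triangles up are upstream, triangles down are downstream, and circles are genes whose strand the table does not give. The largest mark is the 10.9-fold site of Ebf2.

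All 6 cholinergic genes with territory had at least 1 site, beside 53.4% of all genes. Of the 6, 1 had 5 or more sites (16.7%), beside 15.8% of all genes. Together they had 15 sites, or 4.89 per 100 kb (2.74 to 8.06), beside 4.66 over all genes. The ratio of these densities was 1.05 (0.588 to 1.73), so the list was near the value of all genes. Slc5a7, the choline transporter of cholinergic terminals, had 6 sites. The highest reached 35.2-fold with 265 reads, 42.5 kb away at chr17:54230955-54231194. It is among the 101 sites at 20-fold or more, a level also reached beside genes such as Iyd and Olfr1009. Slc10a4, a vesicle-associated transporter, had 3 sites (up to 5.68-fold), and Ache, acetylcholinesterase, had 3 (up to 5.15-fold). Chat, choline acetyltransferase, had 1 site of 11 reads and 1.89-fold. Calca and Calcb had 1 site each, of 2.51 and 2.83-fold. Slc18a3 and Prph had no territory.

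Genes of neural progenitors had many sites for their territory. Of 16 such genes, 14 had a site and 11 had 5 or more, with a median of 7 and 11.8 sites per 100 kb (9.98 to 13.8). Sox2 had 23 sites and Hes1, a Notch effector, had 22. Sox2's highest had 103 reads (6.30-fold) and that of Hes1 81 reads (8.36-fold). Neurog2 and Fabp7 had none. This density was 2.53 times that of all genes and the highest of the 18 lists. Hox genes came higher with 1 entry per interval (2.42 against 2.31 times) and with both flanking genes (2.62 against 2.59), and housekeeping genes with distance to every gene (4.83 against 3.19). Dorsal interneuron genes followed among neural lists with 8.95 per 100 kb (7.30 to 10.9). That was 1.92 times the value of all genes, and 3.05 times with distance to every gene. By nearest coding gene, Olig3 had 26 of the sites of this list. The highest Olig3 site was 12.58-fold. Ventral interneuron genes had 5.86 (4.55 to 7.42), with 20 sites at Pax2 and 9 at En1.

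Of 39 Hox genes, which set position along the body axis, 8 had territory, since most lie inside their clusters. These 8 held 35 sites, or 10.5 per 100 kb (7.33 to 14.6), with 9 at Hoxc4 and 8 at Hoxb1. TALE cofactors of Hox proteins had 5.78 per 100 kb (4.02 to 8.04), with 12 sites at Meis1 and 11 at Pbx3. Motor column and subtype genes had 5.51 (4.31 to 6.95), which was 1.18 times the value of all genes, but 0.216 times with distance to every gene. Nr2f2, an orphan nuclear receptor gene, had 24 sites, and Lhx1, Pou3f1 and Bnc2 had 8 each. Axon guidance and adhesion genes had 4.56 (3.82 to 5.4), with 17 sites at the chemokine receptor gene Cxcr4 and 16 at Nrp1. Pan-neuronal genes had 5.22 (4.04 to 6.64), with 13 at Elavl4 and 10 at Syt1.

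Lists of other regions and tissues had intervals that include the value of all genes, and the housekeeping list did not. The intervals of 6 lists given above include that value too. These are the cholinergic, motor column and subtype, pan-neuronal, TALE cofactor, axon guidance and adhesion, and ventral interneuron lists. Forebrain and midbrain genes had 5.82 per 100 kb (4.48 to 7.44), where Dlx2, Lmx1a and Nkx2-1 had 10 each. Sensory neuron and neural crest genes had 5.27 (3.99 to 6.83), with 11 at Eya1 and 10 at Neurog1. Mesoderm and muscle genes had 5.09 (3.48 to 7.19; Pax7 6, Myh3 5), blood and microglia genes 4.92 (2.69 to 8.25; Ptprc 11), and endothelial genes 4.86 (3.40 to 6.73; Cdh5 9, Emcn 7). Liver and endoderm genes had 4.58 (1.98 to 9.02), with 6 at Ttr and 1 each at Hnf4a and Foxa1. Epidermal genes had 3.43 (1.88 to 5.76), with 5 at Epcam and 3 at Grhl2. Housekeeping genes had 10.1 (6.42 to 15.2), but 6 of them had territory. Their ratio to all genes was 2.17, and 4.83 with distance to every gene. The liver and endoderm ratio of 0.983 was 0 there. Ywhaz held 13 of their 23 sites, and Actb and Eef1a1 held 4 each.

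**Figure D4:**
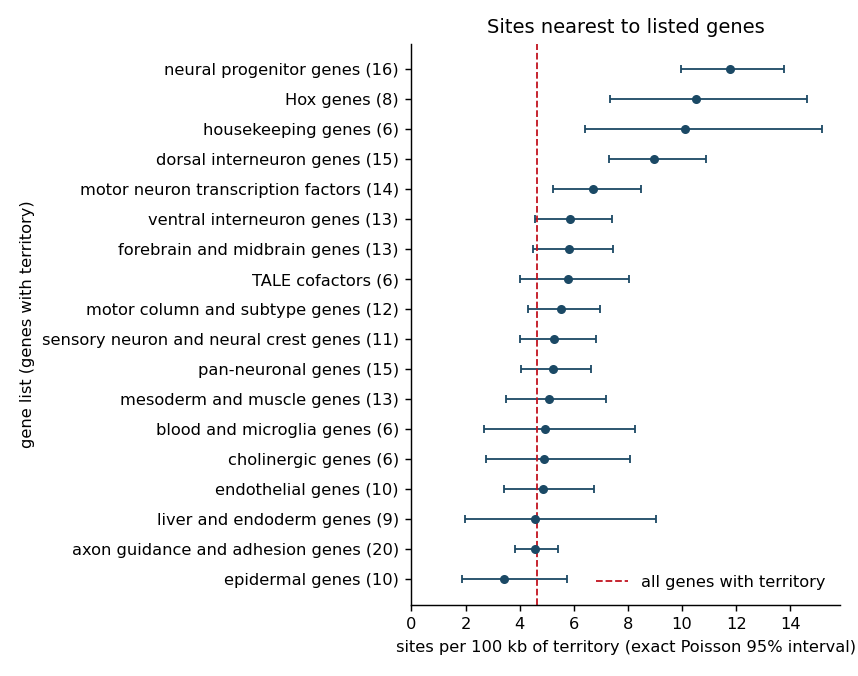
Sites per 100 kb of territory (x axis) for the genes of each list, with the number of genes with territory in brackets and exact Poisson 95% intervals as bars. The dashed line is the value of all genes, 4.66. The intervals of neural progenitor, Hox, housekeeping, dorsal interneuron and motor neuron transcription factor genes lie above it.

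Non-coding genes took part of the sites. Of the 24542, 5326 (21.7%) lay inside a non-coding gene, beside 17.3% of the territory, and 2575 (10.5%, 10.1 to 10.9) lay within 1 kb of an end of one, beside 5.45% of the territory. The ratio of these shares was 1.93. It was 2.47 at the ends of lncRNA genes (1805 sites), 4.41 at miRNA genes (47), 10.7 at ribosomal RNA genes (38) and 14.7 at transfer RNA genes (183). At pseudogene ends it was 0.733. Transfer RNA ends had a median of 55 reads and 3.56-fold. Ribosomal RNA ends had a median of 2.12-fold, and none of their 38 sites reached 5-fold. The run between Gas8 and Rhou alone covers 43 genes of 5S ribosomal RNA. How many of the 38 lie in that run was not counted. A total of 18091 sites (73.7%) were outside all non-coding genes and their ends, with a median of 20 reads and 2.98-fold.

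The lncRNA starts with a site were richer in CpG than those without. Of 3841 lncRNA promoter windows in the territory, 323 windows (8.41%) of 302 genes held a site summit. Their median GC content was 53.7% and their median number of CpG was 7, beside 47.0% and 3 in the 3518 windows without. Coding windows with an entry summit had 63.3% and 23. The GC box was in 32.8% of lncRNA windows with a summit, 7.65% of those without, 71.1% of coding windows with a summit and 36.0% of all windows of this length. The CCAAT box was in 36.8%, 37.3%, 42.0% and 37.3% of the same 4 sets. The TATA box (TATAAA) was in 11.5% of lncRNA windows with a summit and 16.7% of those without. For the homeodomain core TAATTA the values were 8.98% and 8.10%, and for the E-box CANNTG they were 79.6% and 81.4%. All motifs were searched on both strands, and a match is a run of letters, not a bound site.

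The 4 starts printed above carried sites of 17.3-fold and 201 reads (1700086L19Rik), 15.9-fold and 208 reads (BB218582), 11.97-fold and 149 reads (Dancr) and 11.4-fold and 178 reads (D130051D11Rik). D130051D11Rik had 5 GC boxes and no CCAAT box, and BB218582 had 3 CCAAT boxes and no GC box. Dancr had 3 CCAAT boxes and 1 GC box. The highest site beside Elavl4, which encodes a neuronal RNA-binding protein, was at the start of the lncRNA Gm33070, with 104 reads and 11.4-fold.

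Hairpins of miRNAs often had a site close by. Of 919 hairpins on these chromosomes, 104 lay in the territory, and 29 of them (27.9%) had a site within 1 kb, whereas 7.18% of the territory lies that close to a site. Joined within 10 kb, the hairpins formed 82 loci, of which 23 had such a site (28.0%, 18.7 to 39.1). This comparison was added after values were seen.

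The miR-9 genes, which are active in neural progenitors and neurons, had many sites (distances here are from the middle of the hairpin). Mir9-2, between Mef2c and Tmem161b, had 11 sites within 10 kb, the highest 7.82 kb before the hairpin with 209 reads and 7.27-fold (chr13:83730562-83731493). Backgrounds there reached 35.7 reads. Mir9-3 had 9, with 93 reads and 6.16-fold 0.388 kb before the hairpin. Mir9-1 had 6, and 1 summit, of 18 reads and 2.82-fold, was inside the hairpin. All 3 loci give the same mature miR-9-5p printed above.

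The cluster from Mir17 to Mir92-1, known for promoting proliferation, had 8 sites, 4 of them in 1 interval 1.49 to 2.84 kb before Mir17 (chr14:115040280-115042509). Those 4 had 125, 165, 167 and 305 reads, with up to 8.34-fold. The 4 beyond the hairpin had 19 to 23 reads. Mirlet7a-1 and Mirlet7f-1 shared 4 sites in 1 interval, 7.48 to 8.45 kb before Mirlet7a-1, with 59 to 174 reads and up to 9.51-fold. Mir129-2 had 6 sites, the highest 71 reads and 6.07-fold, in the gap between Hsd17b12 and Ttc17. The cluster of Mir182, Mir183 and Mir96, known from sensory organs, had 6 sites of at most 2.91-fold.

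**Figure D5:**
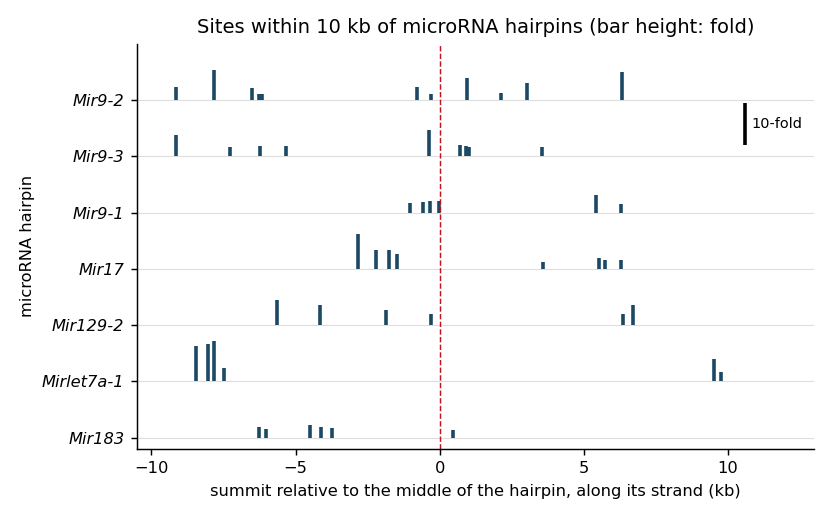
Each bar is a site within 10 kb of a miRNA hairpin, placed by its summit relative to the middle of the hairpin along the hairpin's strand (x axis, kb), and its height is the fold, with a scale bar of 10-fold. Mir9-2 has 11 sites on both sides, and the highest sites of Mir17 and Mirlet7a-1 lie before the hairpin.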

How the data were processed

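Chromatin accessibility was measured by ATAC-seq in 2 replicates, which the authors pooled into 1 filtered list in narrowPeak format. MACS2 2.2.7.1, BWA 0.7.1.7, SAMtools 1.7.2, cutadapt 0.6.2, Trim Galore and the build mm10 are listed by the submitters' processing notes. Not given in the sources used here are the filter, the handling of duplicates and whether read positions were shifted for Tn5. The deposited fold was taken as a ratio of summit reads to local background, with 1 read added to each. Significance was deposited as −log10 of the p-value and of the q-value. The deposited score was not used.

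Reads and background at each summit were solved from the fold and the −log10 p, and 99.96% of pileups were within 0.01 of a whole number. Each such value counts the reads or fragments that overlap the summit base. The depth of either library is unknown. Genes, promoter windows and miRNA sequences were RefSeq's (GRCm38.p6, whose chromosomes mm10 shares), with 20560 coding genes on chromosomes 1 to 19. Another 105 coding genes placed before the first entry of their chromosome were left out, which changed no distance class. Territory was assigned to the nearest gene end. Sites were counted, with exact binomial or Poisson 95% intervals. No test was made, since 1 pooled list has no replicate values. Code was tested on simulated data, in Python 3 with the packages numpy, pandas and scipy.

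The sites and the 18 gene lists were chosen with earlier results of these data known. The genes named were every motor neuron transcription factor and cholinergic gene, the 2 genes with most sites of every other list with ties, the 10 with most sites and the 5 with most per 100 kb, some of which are not reported here. The sites named were the 10 of highest fold, the 5 of highest background, the highest of each transcription factor, the 5 longest runs with ties, and the 3 nearest each limit. Named lncRNA and miRNA genes, gene families, the side of the gene and the level of 20-fold were chosen after values were seen.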

Additional observations from a re-analysis of the deposited data

How the results depend on the processing

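The list is 1 pool of both replicates, so no replicate could be left out. No paired analysis was possible because the file holds no values of single replicates. The composition of the sites' own sequence, with its alternative window, was not run, since no genome was used here. Density against all entries (0.832 times) stayed between 0.647 and 0.886 times in the 9 alternatives run. The share of entries was 19.4% with 1 entry per interval, 17.9% with q under 0.05, 16.3% in the upper 50% by q, 18.6% without predicted genes and 17.2% with distance to every gene. Median fold was 3.14, 3.46 and 4.71 in the first 3 of these. The ratio of density at 10 to 20 kb to that at 90 to 100 kb was 1.53 with distance to every gene and 1.16 in gaps over 200 kb. The share of sites in runs of 5 or more was 17.5% with 1 entry per interval, 24.8% with q under 0.05, 11.1% in the upper 50%, 21.7% with distance to every gene, 10.7% with runs joined at 5 kb and 48.9% at 25 kb. The share of genes with a site was 49.0% with q under 0.05, 38.5% in the upper 50%, 55.2% without predicted genes and 43.6% with distance to every gene. Motor neuron transcription factors had 1.44 times the density of all genes, against 1.87 times in the upper 50%, 1.22 with 1 entry per interval and 1.17 with distance to every gene. With distance to every gene, coding or not, the same ratio moved from 1.18 to 0.216 for motor column and subtype genes, from 1.92 to 3.05 for dorsal interneuron genes, from 2.17 to 4.83 for housekeeping genes, from 0.983 to 0 for liver and endoderm genes, from 0.98 to 1.39 for axon guidance and adhesion genes, from 1.25 to 1.74 for forebrain and midbrain genes, from 1.13 to 1.57 for sensory neuron and neural crest genes and from 2.53 to 3.19 for neural progenitor genes. In the upper 50% it was 2.97 for neural progenitor genes and moved from 1.04 to 0.714 for endothelial genes. The share at non-coding gene ends was 9.39% with 1 entry per interval and 11.9% in the upper 50%. Keeping the genes placed before the first entry, an alternative added after the data were seen, moved none of these beyond its interval. The causes were not tested. The lowest listed pileup of 11 reads limits what can be seen.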

Other observations

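Some long gaps between genes held no site at 10 to 100 kb at all. Between Cdh9 and Cdh10, a pair of cadherin genes, the 180 kb of territory held none, while 17 entries lay elsewhere in the gap, beyond 100 kb from both genes or within 10 kb. The gap between Cdh12 and Cdh18 held 4 entries and none in the territory. Between Rbfox1 and Tmem114 there were 18 entries, again none in the territory, and between Ccdc54 and Cblb there were 39. The gaps between Vmn2r98 and Vmn2r99 and between Vmn2r103 and Vmn2r104, vomeronasal receptor genes, held no entry of any kind.

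Sites beside some single genes, chosen after values were seen, reached high values. Sox9, an HMG-box factor gene on the neural progenitor list, had 20 sites, up to 13.6-fold with 177 reads at 23.5 kb, and the gap from Sox9 to Slc39a11 held 36. Foxa2, a floor plate gene, had 25 sites, and its highest had 93 reads and 10.5-fold at 74.1 kb. Mef2c had 25 sites without an entry at either gene end. Ptprc, on the blood and microglia list, had 11 sites, up to 12.1-fold with 118 reads, and no entry at its ends. A site near Rpusd4, at chr9:35305217-35305591, had 4149 reads over a background of 105.9 (38.8-fold).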
